A study of Mus musculus with 21 samples.

Results

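The genes described here are 10 genes of the smooth muscle contractile apparatus, with Lmod1 at their head, out of 55487 genes in each of the count tables for skin and inguinal lymph node. They were chosen by gene symbol, and the choice was made with earlier results of these data known. Which comparison it drew on is not stated. Lmod1 was among the genes with the clearest difference in lesional skin. The lesional skin values of the members are therefore given as a description, with no p-value. The choice may also have drawn on the nodes, so the members' node calls are a description too. All 10 symbols were found in both tables.

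The mice carried an interferon kappa transgene (Ifnk TG) under the keratin 14 promoter, which drives it in the epidermis. The transgene was made on C57Bl/6 and crossed onto BALB/c, and the controls were wild-type (WT) BALB/c mice. Bulk RNA sequencing covered 9 skin libraries from mice 12 months old, none of them irradiated: 3 from WT skin, 2 from nonlesional Ifnk TG skin (TG NL) and 4 from lesional Ifnk TG skin (TG L). It also covered 12 inguinal lymph node libraries from mice whose age the labels do not give, 3 in each of 4 groups. The groups were WT and Ifnk TG, untreated (NoTx) or exposed to ultraviolet B after shaving (UVTx). Exposure was 250 mJ/cm2 at 310 nm on 3 days a week for 2 weeks, with collection after 2 further weeks. The labels name neither the mouse nor its sex nor the body site, so p-values measure the spread between these libraries only. The study took lesional skin from any site that had a lesion, mostly the face. Its nonlesional skin came from the back and from sites like those of the lesions. Whether body site differed between the skin groups sequenced is not known.

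Smooth muscle shortens when the motor protein myosin pulls on actin filaments, after a calcium-dependent kinase has phosphorylated the myosin light chain. In skin it forms the arrector pili muscles of the hair follicles, the walls of arterioles and veins, and in some body sites deeper sheets, while myofibroblasts and myoepithelial cells use some of the same genes. Much of this gene set is switched on by serum response factor with its partners myocardin and the myocardin-related factors, acting through a short promoter element named the CArG box. In a lymph node the same genes mark the muscle coat of vessels and contractile stromal cells.

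The promoter element is shown first, for the members whose upstream sequence was available. RefSeq gave an upstream region (GRCm38.p6) for 7 of the 10 members. Myh11, Tagln and Actg2 had no entry. In the 250 bases before the annotated start, a CArG box was found in Myl9 alone among the 7, and a form with 1 letter of its A and T core changed was found in Acta2 and again in Myl9. Each window below gives the plus or minus strand of its gene, 5′ to 3′, with the box in capitals.
Acta2, chr19:34255438-34255467, minus strand, box starting 84 bases before the start, 1 letter off: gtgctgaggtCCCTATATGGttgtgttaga
Acta2, chr19:34255388-34255417, minus strand, box starting 34 bases before the start, 1 letter off: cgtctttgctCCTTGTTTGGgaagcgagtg
Myl9, chr2:156775293-156775322, plus strand, box starting 161 bases before the start, intact: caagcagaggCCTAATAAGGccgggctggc
Myl9, chr2:156775355-156775384, plus strand, box starting 99 bases before the start, 1 letter off: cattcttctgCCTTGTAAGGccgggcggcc
The box reads the same on both strands, so a match on 1 strand is a match on both. Of 32851 upstream regions of the same length, 1.47% held an intact box and 8.59% a box with at most 1 core letter changed. The upstream windows of Lmod1, Cnn1, Smtn, Mylk and Synpo2 held neither form, which says only that those letters are absent from these windows. The 2 Acta2 windows lie inside a first exon of the longer Acta2 transcript in GENCODE M21, and the Myl9 windows lie outside any annotated gene. The upstream windows of Mylk and Smtn lie inside those genes in GENCODE M21. Sequence before the outermost annotated starts of Mylk and Smtn was therefore not searched.

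Library totals ran from 40499078 to 56511276 counts in skin and from 27599809 to 36428435 in the nodes. Levels are given as CPM, counts scaled to the library total, after trimmed-mean (TMM) normalization, and fold changes as log2 values with a standard error (SE) from a single model per tissue. A gene was called when its p-value from edgeR, adjusted over all genes tested in that tissue, was below 0.05. Xist, the transcript of the inactive X chromosome, was at 0.132 CPM in lesional library 6, 0.319 CPM in nonlesional library 3 and 0.0811 to 1.46 CPM in the nodes, against 78.9 to 179 CPM in the other skin libraries. All 10 members passed the low-count filter in skin and 8 did so in the nodes.

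Levels between genes were compared per kilobase of exon (RPKM). In WT skin the light chain Myl9 stood highest at 47.1 ± 9.42 RPKM (SD, n = 3), followed by Acta2 at 37.9 ± 8.32, Synpo2 at 33.9 ± 3.12 and Tagln at 24.5 ± 5.86. Smtn followed at 11.7 ± 1.29, Myh11 at 8.61 ± 0.772, Lmod1 at 8.39 ± 0.910, Mylk at 6.09 ± 0.863, Actg2 at 4.59 ± 2.22 and Cnn1 at 1.91 ± 0.897. Of these neighbours, Acta2 stood above Synpo2 in 2 of the 3 WT libraries and Myh11 above Lmod1 in 2 of 3, so the order within those pairs is not set by these data. The other neighbours kept this order in all 3 libraries. In lesional skin Tagln (51.1 ± 11.0 RPKM, n = 4) and Acta2 (50.5 ± 16.5) stood at the top and Lmod1 (1.10 ± 0.233) at the bottom, with Cnn1 (1.53 ± 0.915) above it in 3 of the 4 libraries. Synpo2 had moved from the third place to 3.92 ± 2.64 RPKM.

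**Figure D1:**
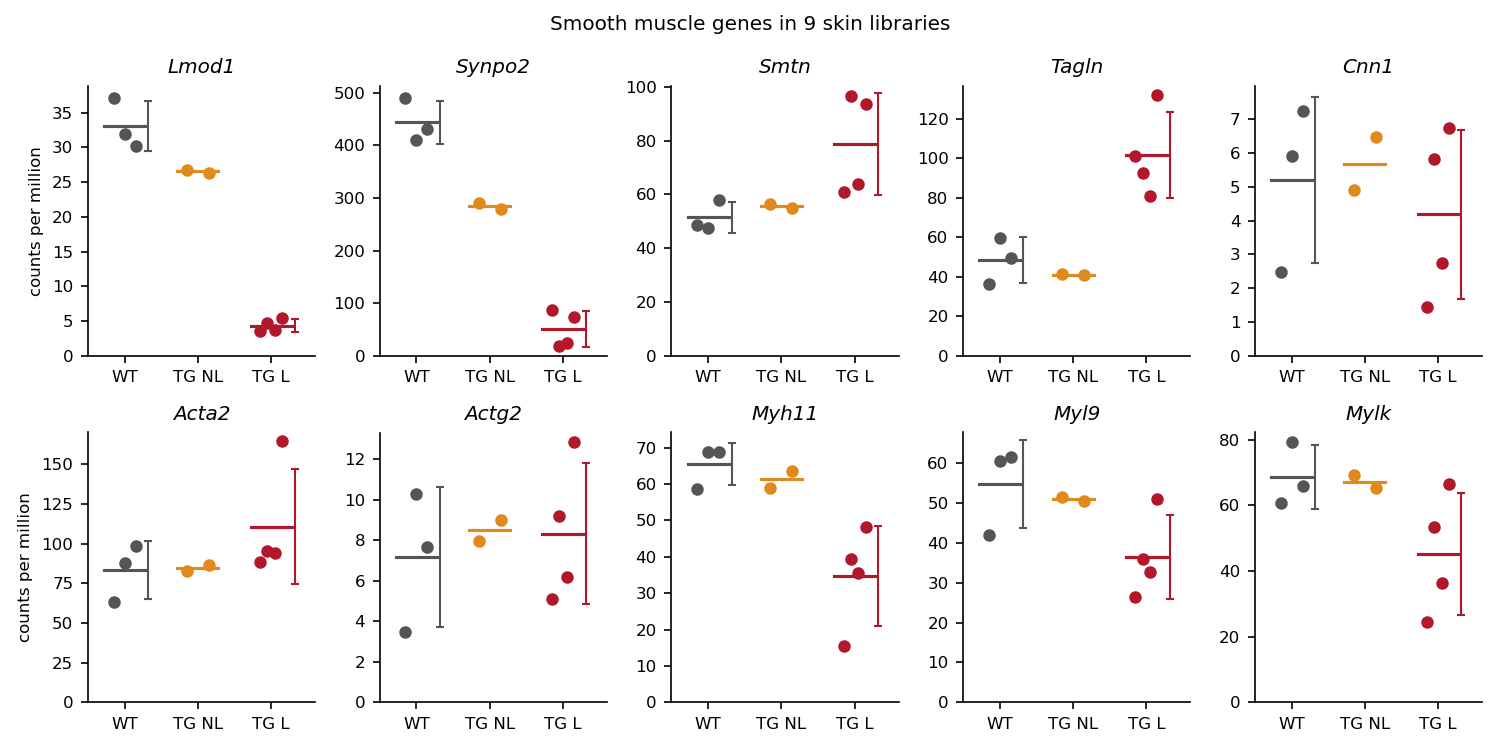
Level of each smooth muscle gene in CPM (vertical axes, each from 0) in WT skin (3 libraries), nonlesional Ifnk TG skin (TG NL, 2) and lesional Ifnk TG skin (TG L, 4). Each point is 1 library, the horizontal line is the group mean and the bar beside it 1 SD (none for the group of 2). Lmod1 and Synpo2 lie far lower in every lesional library, Tagln lies higher in all 4, Actg2 and Cnn1 overlap both other groups, and Acta2 overlaps WT skin.

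Lmod1 encodes leiomodin 1, which nucleates actin filaments in smooth muscle. It was read at 37.1, 32.0 and 30.2 CPM in the 3 WT libraries and at 26.7 and 26.3 CPM in the 2 nonlesional libraries. The 4 lesional libraries held 3.53, 4.74, 3.68 and 5.48 CPM, which rested on 167 to 304 counts. Every lesional library lay below every other skin library, by a wide gap. The fitted difference was a log2 fold change of -2.93 (SE 0.17) against WT, or 7.60-fold, and -2.61 (SE 0.18) against nonlesional skin. The lesional values were close together, with the highest 1.55 times the lowest.

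Synpo2 encodes synaptopodin 2, an actin-bundling protein of the Z-disc in striated muscle and of dense bodies in smooth muscle. WT skin held 489, 410 and 432 CPM, nonlesional skin 290 and 280 CPM, and lesional skin 88.0, 18.6, 25.4 and 73.3 CPM. The lesional libraries again lay below all others, but they differed among themselves 4.72-fold. The log2 fold change was -3.11 (SE 0.52) against WT and -2.47 (SE 0.55) against nonlesional skin.

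Tagln, which encodes transgelin (SM22), an actin-binding protein of smooth muscle and myofibroblasts, went the other way. Its lesional libraries stood at 101, 92.6, 80.9 and 132 CPM, against 41.5 and 40.8 CPM in nonlesional and 36.5, 59.7 and 49.7 CPM in WT skin. No lesional library overlapped another group. The log2 fold change was 1.06 (SE 0.20) against WT and 1.304 (SE 0.24) against nonlesional skin. Its exons share 1241 bases with the antisense gene Gm48529, which held 60 to 116 counts in the skin libraries against at least 1600 for Tagln, and whose log2 fold change against WT was 0.01 (SE 0.26). They also share 108 bases with Pcsk7 on the opposite strand, a gene with 1053 to 1704 counts in skin and a log2 fold change against WT of 0.14 (SE 0.08, adjusted p = 0.209).

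Smtn, smoothelin, is an actin-associated protein of contractile smooth muscle. Lesional skin held 60.9, 96.5, 64.0 and 93.6 CPM, nonlesional skin 56.5 and 54.9 CPM and WT skin 48.7, 47.7 and 57.9 CPM. The lesional libraries were all above the others, the lowest of them by a small margin over the highest WT library. The log2 fold change was 0.61 (SE 0.18) against WT and 0.50 (SE 0.21) against nonlesional skin.

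Cnn1, calponin 1, binds actin and restrains the myosin motor. It was the least abundant member in WT skin, with 79 to 374 counts in a skin library, and its 4 lesional values (1.44 to 6.74 CPM) covered most of the WT range of 2.49 to 7.25 CPM. Its log2 fold change against WT was -0.32 (SE 0.54), with a 95% interval of -1.38 to 0.75.

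Acta2 and Actg2 encode the actins of vascular and of enteric smooth muscle. Acta2 lay at 88.3, 95.7, 94.4 and 165 CPM in lesional skin, at 82.6 and 86.7 CPM in nonlesional skin and at 63.2, 87.8 and 98.8 CPM in WT skin. A single lesional library stood far above the rest and the other 3 lay within the WT range. The log2 fold change against WT was 0.41 (SE 0.24) with all libraries and 0.16 without the high one. Actg2 was read at 5.10 to 12.8 CPM in lesional and 3.47 to 10.3 CPM in WT skin, and its log2 fold change was 0.22 (SE 0.41). The longest run of identical bases between transcripts of these 2 genes was 29, each shares a run of the same length with the skeletal muscle actin gene Acta1, and Actg2 shares one of 38 bases with the cardiac actin gene Actc1. The counts are estimates (RSEM), and how far reads that match several of these genes shaped them was not tested. Small differences between the actins are therefore uncertain.

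The motor genes were lower in lesional skin on average and less uniformly so. Myh11, the smooth muscle myosin heavy chain and the most specific marker of the lineage among the members, was read at 15.5, 39.5, 35.6 and 48.2 CPM in lesional skin, 59.0 and 63.7 CPM in nonlesional and 58.7, 68.9 and 68.8 CPM in WT skin. The groups did not overlap, and the log2 fold change was -0.91 (SE 0.31) against WT and -0.82 (SE 0.35) against nonlesional skin. Without the lowest lesional library the difference from WT was -0.67. Myh11 shares runs of up to 65 identical bases with the non-muscle myosin genes Myh9 and Myh10, so its counts carry the same uncertainty. Myl9, the regulatory light chain, ranged from 26.3 to 50.9 CPM in lesional and from 42.1 to 61.4 CPM in WT skin (log2 fold change -0.59, SE 0.22). Mylk, the kinase that phosphorylates this light chain, ranged from 24.5 to 66.6 CPM in lesional and from 60.6 to 79.5 CPM in WT skin (-0.60, SE 0.30). Both overlapped between the groups.

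The same pair of lesional libraries set the extremes for most members. The lesional library numbered 4 was the lowest of the 4 for 8 of the 10 members, Tagln and Synpo2 being the exceptions, and the library numbered 7 was the highest for 8, the exceptions being Smtn and Synpo2. Within each library the members nevertheless stood in changed proportion. The ratio of Lmod1 to Myh11 CPM was 0.103 to 0.227 in the lesional libraries, 0.414 to 0.453 in the nonlesional and 0.439 to 0.633 in the WT libraries. The ratio of Tagln to Myh11 was 2.27 to 6.50 in lesional skin and 0.622 to 0.867 in WT skin.

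By the calls, 5 of the 10 members differed between lesional and WT skin, with Tagln and Smtn higher and Lmod1, Synpo2 and Myh11 lower. In that comparison 43.1% of all 19101 tested genes were called. Against nonlesional skin 3 members were called, Lmod1 and Synpo2 lower and Tagln higher, where 25% of all genes were. The lesional libraries lay wholly outside the WT range for those 5 members, as 49.4% of all genes did, and wholly outside the nonlesional values for 6 members, also beside 49.4%. As this contrast may have guided the choice of the group, nothing is read from these counts. The median log2 fold change of the members against WT was -0.45, beside 0.06 over all tested genes. The 5 calls became 3, namely Lmod1, Synpo2 and Tagln, when WT and lesional libraries were fitted on their own or WT library 9 was left out. Leaving out either nonlesional library left Lmod1 as the only member called against nonlesional skin, and without lesional library 4 there were 5, with Myh11 and Smtn added. Myh11 was also not called against WT with Xist as a covariate or without a low-count filter.

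**Figure D2:**
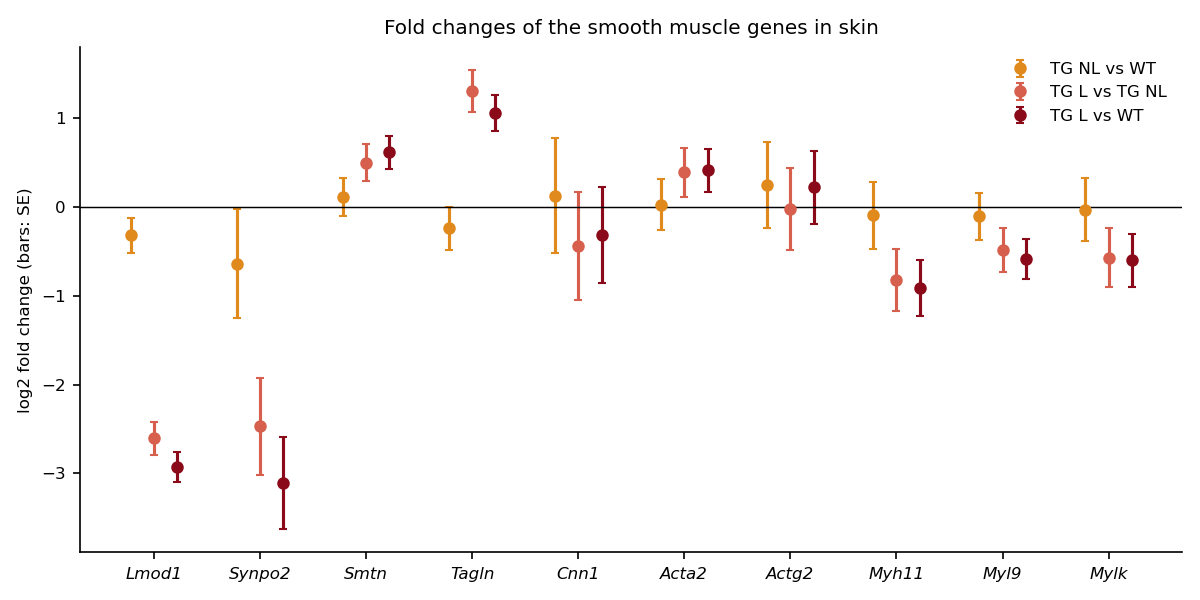
Log2 fold change (vertical axis) of each smooth muscle gene with its standard error (bars) for nonlesional Ifnk TG against WT skin, lesional against nonlesional Ifnk TG skin and lesional Ifnk TG against WT skin. Lmod1 and Synpo2 sit between -2.47 and -3.11 in both lesional comparisons, Tagln at 1.06 and 1.304, and all 10 nonlesional values lie between -0.64 and 0.25.

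None of the 10 members was called between nonlesional Ifnk TG and WT skin by edgeR or by DESeq2, and 0 had an unadjusted p below 0.05. The members summed to 683 to 690 CPM in nonlesional and 842 to 879 CPM in WT skin. Of these sums, Synpo2 made up 280 to 290 CPM and 410 to 489 CPM. Over all genes edgeR called 0%, with 7.67% at an unadjusted p below 0.05, and DESeq2 called 62 genes. The log2 fold changes ran from -0.64 for Synpo2 (SE 0.61, adjusted p = 0.814) to 0.25 for Actg2 (SE 0.48, adjusted p = 0.915). Lmod1 was at -0.32 (SE 0.20, adjusted p = 0.731), with both nonlesional libraries below all 3 WT libraries, as also for Synpo2 (35% of all genes did not overlap), and a 95% interval of -0.71 to 0.07. With 2 nonlesional libraries a small difference was not detectable. The SE of Synpo2 came from a fit that also held its widely spread lesional libraries.

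Genes of skeletal muscle, a tissue that mouse skin carries as the panniculus carnosus below the dermis, were read at very unequal levels in the skin libraries. The summed level of 11 skeletal muscle genes was 31149 to 43079 CPM in WT skin and 29046 to 33876 CPM in nonlesional skin. In lesional skin it was 29.1 to 8362 CPM, and all 11 genes lay below the WT range in all 4 libraries, as 23.4% of all genes did. The lesional values spread widely, and 4 of the 11 genes were called against WT, where 43.1% of all genes were. The myosin Myh1 (-4.41, SE 1.33, adjusted p = 0.029) and the alpha-actinin Actn3 (-4.28, SE 1.31, adjusted p = 0.0304) differed by most. Synpo2, which striated muscle also uses, followed that order within the lesional group: its 88.0, 73.3, 25.4 and 18.6 CPM belonged to libraries with 8362, 1741, 428 and 29.1 CPM of skeletal muscle RNA. Lmod1 did not follow that order: its 3.53, 5.48, 3.68 and 4.74 CPM belonged to the same libraries in turn. Its lesional values spanned 1.55-fold and the skeletal muscle sum 287-fold. Both were lower in lesional skin than in nonlesional or WT skin. The library with the most skeletal muscle RNA held the least Lmod1 and the least Myh11. The striated paralogs Lmod2 and Lmod3, looked at after the values of Lmod1 were known, held 1.70 to 21.9 CPM and 0.0987 to 12.4 CPM in lesional skin against 75.7 to 100 CPM and 52.4 to 71.8 CPM in WT skin. The part of these skeletal muscle levels in the differences of Lmod1 and Synpo2 was not tested beyond these values. In bulk tissue fewer cells of a type and less RNA per cell cannot be told apart.

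**Figure D3:**
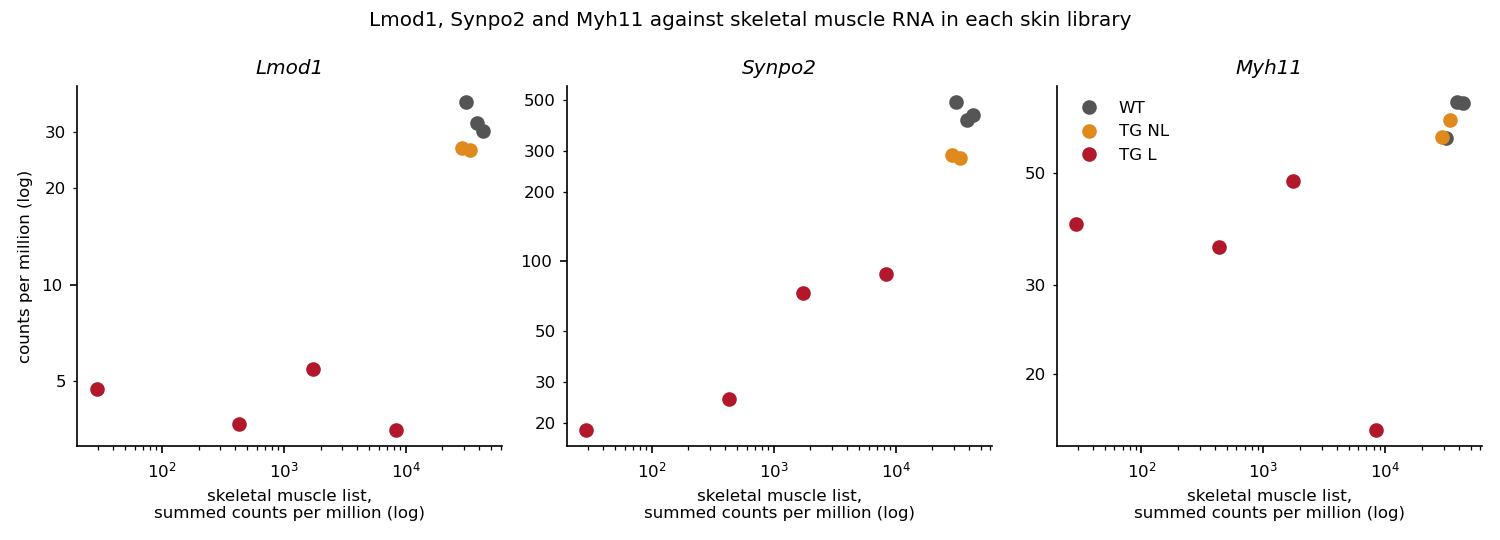
Level of Lmod1, Synpo2 and Myh11 (vertical log axes, CPM) against the summed level of 11 skeletal muscle genes (horizontal log axes, CPM) in the 9 skin libraries, coloured by group. Among the 4 lesional libraries Synpo2 climbs from 18.6 to 88.0 with the skeletal muscle sum, while Lmod1 stays between 3.53 and 5.48 and Myh11 is lowest, at 15.5, where the sum is highest.

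Markers of vessel wall cells and other tissue compartments were examined in the same libraries, and their counts of calls stand beside the 43.1% of all genes called in lesional against WT skin. The 11 pericyte and mural cell markers summed to 287 to 441 CPM in lesional, 464 to 491 CPM in nonlesional and 472 to 551 CPM in WT skin. Of these 11 genes, 3 were called higher and 2 lower in lesional than WT skin. The Notch target Heyl (log2 fold change 3.09, SE 0.44, adjusted p = 0.000982) and the respiratory subunit Cox4i2 (1.62, SE 0.41, adjusted p = 0.012) rose. The potassium channel regulator Abcc9 (-2.58, SE 0.41, adjusted p = 0.00179) and the adhesion molecule Mcam (-1.65, SE 0.23, adjusted p = 0.000883) fell. The 7 endothelial markers summed to 105 to 234 CPM in lesional and 285 to 413 CPM in WT skin, with 5 called lower, led by the angiopoietin receptor Tek (-1.42, SE 0.28, adjusted p = 0.00403) and the growth factor receptor Kdr (-1.21, SE 0.27, adjusted p = 0.00773). The 7 adipocyte markers summed to 777 to 4061 CPM against 7079 to 10372 CPM, with 3 called lower, Adipoq (-2.20, SE 0.55, adjusted p = 0.0133) and Retn (-2.004, SE 0.58, adjusted p = 0.0241) by most. Fibroblast and matrix markers overlapped in sum (3870 to 8634 CPM against 4410 to 7411 CPM), with the matrix glycoproteins Tnc (4.52, SE 0.29, adjusted p = 4.95e-05) and Postn (0.82, SE 0.23, adjusted p = 0.0191) higher and the proteoglycan gene Dcn (-0.89, SE 0.21, adjusted p = 0.00993) lower. Myoepithelial and mammary markers, which could bring in smooth muscle genes from gland, summed to 51.5 to 109 CPM in lesional and 61.8 to 149 CPM in WT skin. Of the 6 that could be tested, Elf5 was higher (4.39, SE 0.60, adjusted p = 0.000925) and the oxytocin receptor Oxtr lower (-2.39, SE 0.35, adjusted p = 0.00122). Keratinocyte genes Krt1 (1.90, SE 0.39, adjusted p = 0.00529) and Krt14 (1.41, SE 0.36, adjusted p = 0.0131) rose. The 5 keratinocyte markers summed to 8004 to 23583 CPM in lesional, 16164 to 18550 CPM in nonlesional and 8842 to 10914 CPM in WT skin. None of the 5 was called against nonlesional skin, where 25% of all genes were. The lymphocyte genes Cd4 (1.86, SE 0.40, adjusted p = 0.00639) and Ptprc (0.59, SE 0.20, adjusted p = 0.0417) rose, but 3 of the 6 lymphocyte markers had log2 fold changes below 0. The stromal chemokine Ccl19 (2.29, SE 0.53, adjusted p = 0.00839) rose, but 4 of the 5 stromal markers tested were below 0. Against nonlesional skin Heyl (3.45), Cox4i2 (1.798), Tnc (3.99), Cd4 (2.72), Ccl19 (2.59) and Elf5 (4.68) were again called higher, and Abcc9 (-2.11), Mcam (-1.31), Tek (-1.05), Emcn (-0.57) and Oxtr (-1.34) lower. The part of these markers in the members' differences was not tested.

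Of 20 other contractile genes, 12 were called lower and 2 higher in lesional against WT skin, beside 43.1% of all genes called in either direction. Their median log2 fold change was -1.97, beside 0.06 over all tested genes. Des, the intermediate filament desmin of all muscle types (-3.71, SE 0.97, adjusted p = 0.0169), and the small heat shock protein gene Hspb6 (-3.67, SE 1.14, adjusted p = 0.0327) fell most. Csrp1, a LIM protein of smooth muscle (1.02, SE 0.20, adjusted p = 0.0036), and Actn1, the non-muscle alpha-actinin (0.76, SE 0.09, adjusted p = 0.00043), rose. Many of the genes that fell, Des among them, are also expressed in striated muscle. Against nonlesional skin 9 fell, led by Des (-3.35, SE 1.02, adjusted p = 0.0451) and the junctional protein gene Jph2 (-3.31, SE 0.91, adjusted p = 0.0326), and 1 rose, Csrp1 (0.77, SE 0.22, adjusted p = 0.0363). Those 10 calls stood beside 25% of all genes called. They were 3 when only the groups compared were fitted and 4 without a low-count filter or without lesional library 7. They were 6 without WT library 8 or 9, 1 without nonlesional library 2 and 0 without nonlesional library 3.

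Among 12 regulators of the smooth muscle programme, 5 fell and 1 rose in lesional against WT skin, beside 43.1% of all genes called in either direction. The transcription factor gene Mef2c (-3.03, SE 0.63, adjusted p = 0.00622), itself prominent in striated muscle, and the TGF-beta effector Smad3 (-1.31, SE 0.26, adjusted p = 0.00418) fell most. Mrtfa, a serum response factor partner, was slightly higher (0.33, SE 0.09, adjusted p = 0.014). Srf itself differed by -0.39 (SE 0.13, adjusted p = 0.0337) against WT and by -0.16 (SE 0.14, adjusted p = 0.426) against nonlesional skin. Myocd, myocardin, was barely read, with means of 0.293 CPM in lesional and 0.451 CPM in WT skin, and was not called (-0.62, SE 0.40, adjusted p = 0.234). Against nonlesional skin 4 regulators fell, again with Mef2c (-2.49, SE 0.66, adjusted p = 0.0292) and Smad3 (-1.002, SE 0.28, adjusted p = 0.0337) by most, and none rose, beside 25% of all genes called. The 2 comparisons share the 4 lesional libraries.

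Across the 9 skin libraries, log2 CPM of Lmod1 went with Synpo2 (Pearson r = 0.917), Myh11 (0.810), Myl9 (0.766) and Mylk (0.739), and against Tagln (-0.881) and Smtn (-0.713). Those values mostly reflect the gap between lesional and other skin, since the libraries fall into these separate groups. On deviations from the group means Lmod1 went with Mylk (0.801), Smtn (0.736) and Myh11 (0.656), and not with Synpo2 (0.012). The 5 non-members with the pattern most like Lmod1 over the 9 libraries were Gid4 (0.993), Etfrf1 (0.991), Sall4 (0.989), Cfap97 (0.987) and the muscle fructose bisphosphatase gene Fbp2 (0.986). On deviations from the group means they were Alx1 (0.978), D030056L22Rik (0.976), Agrn (0.970), Tulp2 (0.968) and Six5 (0.967). No gene was on both lists. These values describe 9 libraries that fall into 3 groups, and carry no p-value.

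In the inguinal nodes the members were far scarcer than in skin. Lmod1 held 0 to 10 counts and Cnn1 0 to 9 counts in a library, too few to test. Lmod1 was counted 4 times in each of the 3 WT NoTx libraries and 2, 0 and 0 times in the WT UVTx libraries, and 5, 8 and 1 times in the Ifnk TG NoTx and 10, 8 and 1 times in the Ifnk TG UVTx libraries. The nodes had been pressed through a cell strainer before lysis, and how much of their stroma passed is not known. Lymphocyte markers summed to 3741 to 4592 CPM and skeletal muscle markers to 3.34 to 4.69 CPM over all 12 libraries.

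**Figure D4:**
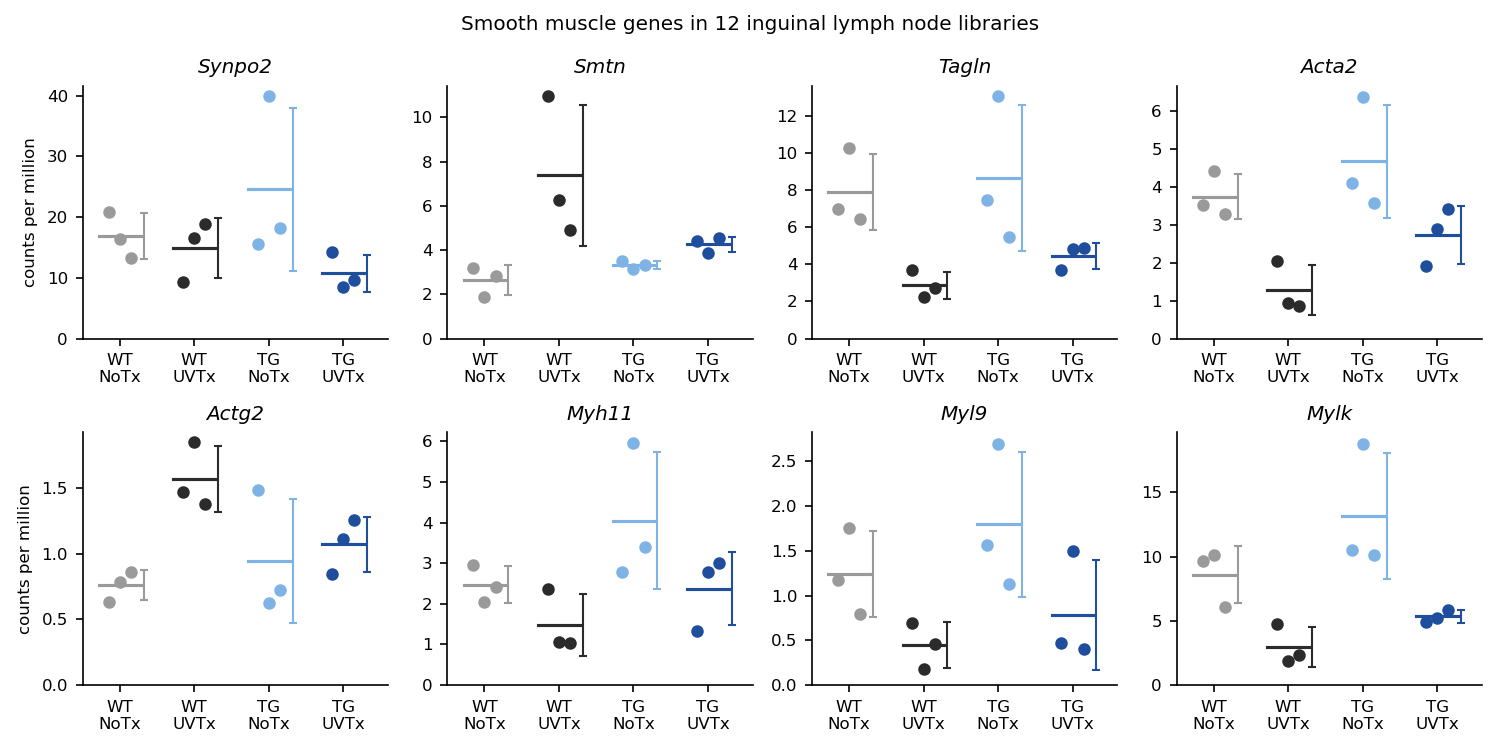
Level of the 8 smooth muscle genes tested in inguinal lymph nodes in CPM (vertical axes, each from 0) for WT and Ifnk TG mice without (NoTx) and with (UVTx) ultraviolet B, 3 libraries a group. Points are libraries, lines are group means and bars are 1 SD. Tagln, Acta2 and Mylk lie lower after irradiation in both genotypes, Smtn lies higher, and Ifnk TG NoTx library 5 stands at the top for 6 of the 8 genes.

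After ultraviolet exposure 3 members fell and 1 rose in WT nodes. Acta2 went from 3.53, 4.42 and 3.28 CPM to 2.04, 0.945 and 0.858 CPM, a log2 fold change of -1.54 (SE 0.36, adjusted p = 0.0343). Tagln went from 7.00, 10.3 and 6.42 CPM to 3.66, 2.25 and 2.697 CPM (-1.45, SE 0.31, adjusted p = 0.0304). Mylk went from 9.63, 10.1 and 6.08 CPM to 4.72, 1.85 and 2.30 CPM (-1.53, SE 0.35, adjusted p = 0.0347). Groups did not overlap for any of the 3, where 37.1% of all genes did not. Smtn moved the opposite way, from 3.20, 1.88 and 2.83 CPM to 11.0, 6.25 and 4.90 CPM (1.48, SE 0.28, adjusted p = 0.0234), again without overlap. These 4 of 8 tested members stood beside 4.98% of all 16173 tested genes called. As the choice of members may have drawn on the nodes, this count is a description only. The other 4 were not called, with log2 fold changes of -1.46 for Myl9 (SE 0.58, adjusted p = 0.139), -0.72 for Myh11 (SE 0.41, adjusted p = 0.269), -0.18 for Synpo2 (SE 0.38, adjusted p = 0.804) and 1.04 for Actg2 (SE 0.36, adjusted p = 0.0967). The calls rest on few libraries: none of the 4 remained without WT NoTx library 2 or 3 or WT UVTx library 8, Smtn alone remained without WT UVTx library 9, and Smtn and Tagln remained without WT NoTx library 1.

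In Ifnk TG nodes no member was called by edgeR, though 5 of 8 had an unadjusted p below 0.05. Over all genes edgeR called 0%, with 9.32% at an unadjusted p below 0.05, and DESeq2 called 134 genes, Mylk among them. The values pointed the same way. Mylk went from 10.5, 18.8 and 10.1 CPM to 4.94, 5.19 and 5.87 CPM (-1.30, SE 0.33, adjusted p = 0.249), and Tagln from 7.43, 13.1 and 5.48 CPM to 3.66, 4.803 and 4.86 CPM (-0.96, SE 0.30, adjusted p = 0.364). Acta2 differed by -0.77 (SE 0.34, adjusted p = 0.508) and Smtn by 0.36 (SE 0.28, adjusted p = 0.736). The irradiated and untreated libraries did not overlap for these 4 genes or for Synpo2 (-1.19, SE 0.39, adjusted p = 0.40), 5 members in all, beside 13.3% of all genes. The test of the difference between the genotypes' responses called none of the 8 members with either tool, and 1 had an unadjusted p below 0.05. Over all genes edgeR called 0%, with 5.45% at an unadjusted p below 0.05, and DESeq2 called 5 genes. Its largest member value was -1.13 for Smtn (SE 0.39, adjusted p = 0.848), with a 95% interval of -1.90 to -0.35.

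Averaged over both genotypes, the same 4 members were called, 3 lower and 1 higher, where 8.61% of all genes were. Mylk differed by -1.42 (SE 0.24, adjusted p = 0.0117), Tagln by -1.21 (SE 0.22, adjusted p = 0.0125), Acta2 by -1.16 (SE 0.25, adjusted p = 0.0175) and Smtn by 0.92 (SE 0.20, adjusted p = 0.0185). Mylk, Tagln and Smtn did not overlap between the 6 irradiated and the 6 untreated libraries, where 3.52% of all genes did not. With any 1 library left out, Mylk, Tagln and Smtn stayed called and only the call of Acta2 was lost, without WT UVTx library 8. Myl9 was at -1.33 (SE 0.40, adjusted p = 0.0554). The antisense gene Gm48529 held 75 to 200 counts in the nodes, of the same order as the 62 to 460 counts of Tagln, and differed by -0.16 (SE 0.20, adjusted p = 0.64). Pcsk7, on the opposite strand, held 943 to 1693 counts, more than Tagln, and differed by 0.12 (SE 0.10, adjusted p = 0.452). The antisense gene of Smtn, Gm11946, held 0 to 3 counts.

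**Figure D5:**
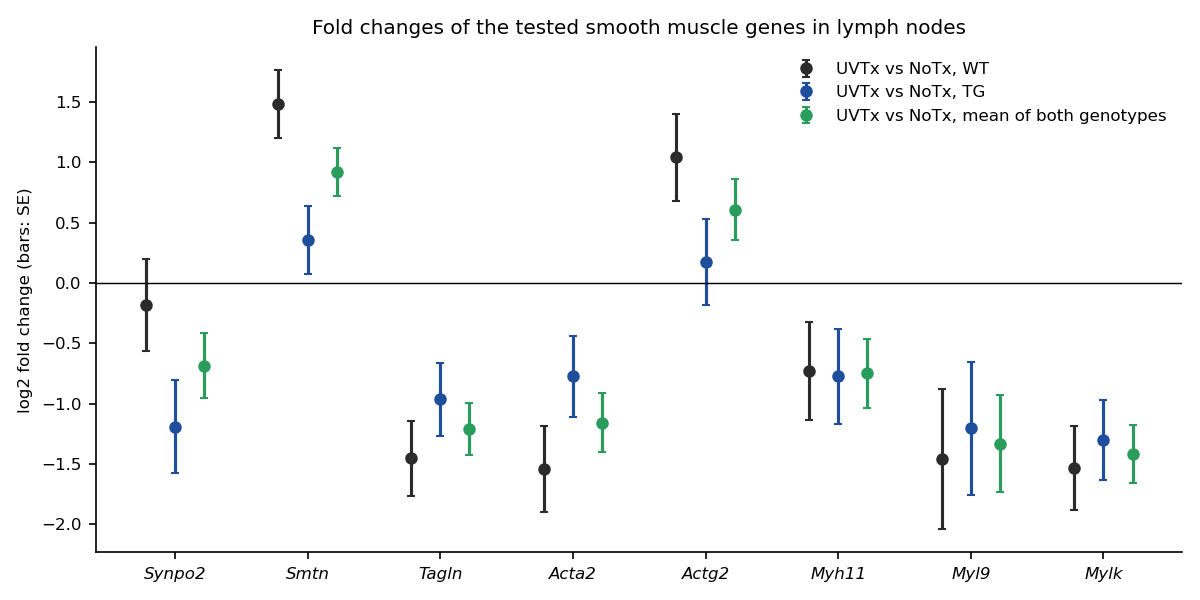
Log2 fold change after ultraviolet B (vertical axis, bars 1 SE) of the 8 smooth muscle genes tested in lymph nodes, in WT mice, in Ifnk TG mice and as the mean of both genotypes. Mylk, Tagln and Acta2 lie below 0 in all 3 estimates, with means of -1.42, -1.21 and -1.16, and Smtn lies above 0 with a mean of 0.92.

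Some genes of the vessel wall and stroma were also called after irradiation, most of them lower. Their counts of calls stand beside 8.61% of all genes called in the mean of both genotypes and 4.98% in WT nodes. The mural cell markers summed to 20.8 to 26.6 CPM in WT NoTx and 7.42 to 15.0 CPM in WT UVTx nodes, and to 20.7 to 41.6 CPM and 10.4 to 22.3 CPM in the Ifnk TG nodes. Of the 7 tested, 2 fell in the mean of both genotypes, Abcc9 (-1.66, SE 0.43, adjusted p = 0.0376) and the pericyte gene Rgs5 (-1.49, SE 0.36, adjusted p = 0.0359). Of 18 tested contractile genes 6 fell, led by Des (-1.49, SE 0.40, adjusted p = 0.0461) and Cald1, caldesmon (-1.45, SE 0.28, adjusted p = 0.0148), and none rose. Those 6 calls became 3 when any 1 library was left out, except WT UVTx library 7 (5 calls) and Ifnk TG UVTx library 12 (7 calls). Of 10 fibroblast and matrix genes 3 fell, with Dcn (-1.49, SE 0.40, adjusted p = 0.0493) and Lum (-1.35, SE 0.38, adjusted p = 0.0429) by most. Of 7 stromal genes the reticular cell cytokine Il7 (-2.17, SE 0.29, adjusted p = 0.00482) and Bst1 (-1.02, SE 0.23, adjusted p = 0.0204) fell, and the follicular gene Cr2 rose (0.42, SE 0.11, adjusted p = 0.0398). The stromal sum was higher in WT UVTx (401 to 451 CPM) than in WT NoTx nodes (361 to 389 CPM). Yet 6 of the 7 tested stromal genes had log2 fold changes below 0 in WT nodes, with a median of -1.13. In the mean of both genotypes Cr2 was the only 1 of the 7 above 0, so the sum does not describe most of these genes. The stromal sum overlapped in Ifnk TG nodes. The fibroblast and matrix sum was lower in WT UVTx (448 to 541 CPM) than in WT NoTx nodes (578 to 664 CPM). In Ifnk TG nodes that sum also overlapped. The endothelial gene Pecam1 (-0.27, SE 0.07, adjusted p = 0.0264) and the adipocyte gene Fabp4 (-1.75, SE 0.44, adjusted p = 0.0343) fell as well. In WT nodes alone the contractile genes Tpm2 (-1.56, SE 0.42, adjusted p = 0.0492) and Csrp1 (-0.45, SE 0.10, adjusted p = 0.032), together with Lum, Pecam1, Fabp4 and Il7, were called lower, and the 2 contractile calls became 0 without WT NoTx library 2 or 3 or WT UVTx library 8 or 9. No regulator was called, and Myocd was not counted in any node library. The part of stromal recovery in the members' node values was not tested.

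Genotype made no called difference to these genes in the nodes. None of the 8 tested members was called between Ifnk TG and WT in NoTx nodes, in UVTx nodes or in the mean of both treatments with either tool, and 0, 3 and 3 had an unadjusted p below 0.05. Over all genes edgeR called 0%, 0% and 0.00618%, with 3.39%, 6.99% and 4.66% at an unadjusted p below 0.05, and DESeq2 called 2, 21 and 9 genes. The largest mean differences were 0.73 for Mylk (SE 0.24) and 0.71 for Acta2 (SE 0.24), both with an adjusted p of 1.00. Ifnk TG NoTx library 5 was the highest of all 12 for Acta2, Myh11, Myl9, Mylk, Synpo2 and Tagln, and also had the highest mural marker sum.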

How the data were processed

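RNA was measured by poly-A sequencing of 9 skin and 12 inguinal node libraries. The authors deposited whole-number expected counts per gene from RSEM 1.3.3 after cutadapt 4.8 and STAR 2.7.8a on GRCm38, per the labels and the study's methods. The annotation release, and whether strand was used, are not given in the sources used here, so reads of Tagln, Smtn and Mylk cannot be separated from those of overlapping genes on the opposite strand. A total of 4 reporter rows, all at 0 counts, were left out. The totals given in the report set the precision.

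Groups follow the labels. Counts were tested with edgeR 4.0.16 in R 4.3.3 (TMM, filterByExpr with a minimum count of 10, robust quasi-likelihood F-test, all libraries of a tissue in 1 fit, Benjamini-Hochberg adjustment over all genes tested) and, as an alternative, DESeq2 1.42.0. The SE is the absolute log2 fold change divided by the square root of F, and 95% intervals are 1.96 SE either side. Such intervals assume a normal spread and are narrower than the F-test implies for so few libraries. The fit was tested on simulated data first. RPKM used GENCODE M21 exon length, and 55227 of 55487 genes matched. Upstream sequences are RefSeq's. Marker lists were summed as CPM.

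The members and gene lists were chosen with earlier results of these data known. Named genes were all 10 members, up to 2 called genes per direction with the largest fold change from each other list, and the 5 genes most correlated with Lmod1 in skin. No such list was made for the nodes, where Lmod1 was too scarce. Srf, Myocd, Lmod2, Lmod3 and the antisense genes were named after their values were seen. Other normalizations, filters, fits and left-out libraries are in the closing section.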

Additional observations from a re-analysis of the deposited data

Results flagged for a closer look

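A single value stood apart among the 4 lesional skin libraries for 1 of the 10 members. Acta2 was at 165 CPM in lesional library 7 and at 88.3 to 95.7 CPM in the others, so that the gap to its neighbour took 0.903 of the whole range, above Dixon's 95% critical value for 4 samples. The adipocyte marker sum was apart in the other direction, at 777 CPM in lesional library 5 against 3568 to 4061 CPM in the others, a gap of 0.85 of the range. Chance marks about 1 in 20 groups, and 22 were examined, 10 members and 12 marker sums.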

How the results depend on the processing

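Each comparison was refitted with DESeq2, other normalizations (RLE, upper-quartile), other filters, no robust estimation, Xist as a covariate, other tissue genes left out, the compared groups alone, and each library left out. No called member reversed its sign under any of these. In lesional against WT skin the 5 called members became 3 with only the groups compared. They were 3 to 6 over the alternatives with all libraries kept and 3 to 7 with a library left out. Against nonlesional skin 3 were called (1 to 5 with a library left out). In WT nodes 4 were called after irradiation, 3 to 6 over the other alternatives and 0 to 4 with a library left out. In the mean of both genotypes 4 were called, 4 to 5 over the other alternatives and 3 to 5 with a library left out. In Ifnk TG nodes 0 became 1 with DESeq2, and with a library left out 0 were called there, in the interaction, in the genotype comparisons and in nonlesional against WT skin. Lmod1 stayed between -3.06 and -2.84 against WT skin and between -2.74 and -2.52 against nonlesional skin. The other contractile genes called, an alternative added after seeing the data, were 14 against WT (11 to 15 with a library left out). Against nonlesional skin they were 10, then 4 with no low-count filter and 3 with only the groups compared (0 to 13). In WT nodes they were 2, then 4 with DESeq2 or only the groups compared and 1 with no filter or the Xist covariate (0 to 3), and in the mean of both genotypes 6, then 3 with at least 10 counts in every library (3 to 7). Fewer genes were tested with that minimum. The causes of the other shifts were not tested. No paired analysis was possible because sample numbers do not repeat between the groups compared within a tissue. Depth limited Lmod1 and Cnn1 in the nodes, and 2 nonlesional libraries limited the skin comparisons.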
